A study of Mus musculus with 3 samples.

Results

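The immediate early genes Fos, Fosb, Jun, Junb, Jund, Egr1, Atf3, Ier2 and Nr4a1 were followed across the cell types of developing mouse back skin. They were taken by symbol, and all 9 were found among the 19165 genes of the deposited table. The animals were male C57BL/6 mice whose dorsal skin was pooled, with no other genotype or treatment, and droplet sequencing of 3' cDNA ends gave 5962 cells (E13.5), 5208 cells (E16.5) and 5065 cells (P0). Each stage is 1 library, so no difference has a replicate check, no test was run and no p-value is given. E13.5 and E16.5 skin was digested with 0.25% trypsin/EDTA for 5 min, whereas P0 skin was digested with 2 mg/ml collagenase IV for 30 min. Between E16.5 and P0 the stage, the library, the enzyme and the digestion time cannot be told apart, and between E13.5 and E16.5 the stage and the library cannot be told apart.

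AP-1 is a dimeric transcription factor built from Fos, Jun and Atf family proteins with a leucine zipper. Immediate early genes are transcribed within minutes of a growth factor, a wound or other stress, by factors already present in the cell, and their mRNAs are short-lived. In skin, AP-1 proteins are known for roles in keratinocyte differentiation and wounding, and the same genes are known to be induced while tissue is dissociated. Fos and Fosb bind DNA with a Jun partner. Jun, Junb and Jund are those partners and also pair with each other. Atf3 is a stress-induced factor of the related ATF/CREB family. Egr1 is a zinc finger factor, Nr4a1 is an orphan nuclear receptor, and Ier2 is a nuclear protein induced by similar stimuli.

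The sequence just upstream of 4 of these genes is shown for 2 reasons. From E16.5 to P0 Fos and Fosb went in opposite directions in 6 of 7 classes, while Atf3 and Nr4a1 were each led by 1 cell class at P0. In 1 of the 6, melanocyte-like cells, the Fosb interval includes a ratio of 1. Windows of 250 bases before a RefSeq transcript start (GRCm38.p6) were used for 7 of the 9 genes. The letters TGACG, part of a cAMP response element, were searched on both strands and are in capitals (CGTCA where they lie on the other strand). Sequences run 5' to 3' in the direction of the gene.
Fos (chr12:85473640-85473889, plus strand): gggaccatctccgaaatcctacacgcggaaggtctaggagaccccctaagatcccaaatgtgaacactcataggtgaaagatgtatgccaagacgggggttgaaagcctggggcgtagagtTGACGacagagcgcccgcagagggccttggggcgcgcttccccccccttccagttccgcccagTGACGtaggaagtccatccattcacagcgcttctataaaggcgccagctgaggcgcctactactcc
Fosb (chr7:19310046-19310295, minus strand): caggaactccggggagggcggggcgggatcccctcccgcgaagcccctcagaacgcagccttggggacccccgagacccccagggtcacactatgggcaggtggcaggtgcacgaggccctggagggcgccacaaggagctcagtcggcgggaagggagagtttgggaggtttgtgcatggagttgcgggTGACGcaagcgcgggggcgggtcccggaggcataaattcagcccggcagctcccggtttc
Atf3 (chr1:191183334-191183583, minus strand): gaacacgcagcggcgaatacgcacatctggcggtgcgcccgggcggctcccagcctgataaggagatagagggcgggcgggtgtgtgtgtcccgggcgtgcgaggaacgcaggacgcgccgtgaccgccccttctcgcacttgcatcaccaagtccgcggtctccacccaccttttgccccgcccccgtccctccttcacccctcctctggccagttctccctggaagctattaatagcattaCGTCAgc
Nr4a1 (chr15:101266596-101266845, plus strand): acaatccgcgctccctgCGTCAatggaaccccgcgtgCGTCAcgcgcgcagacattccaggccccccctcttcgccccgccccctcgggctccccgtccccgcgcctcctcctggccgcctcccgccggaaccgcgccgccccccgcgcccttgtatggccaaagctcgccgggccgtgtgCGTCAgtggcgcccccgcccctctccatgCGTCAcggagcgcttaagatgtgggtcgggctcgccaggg
TGACG was found in 5 of the 7 windows (Fos, Fosb, Junb, Atf3 and Nr4a1) and in 17.8% of all 32851 windows of this length. Nr4a1 held 4 copies and Fos 2, whereas Fosb, Junb and Atf3 held 1 each and Jun and Jund held none. The whole element TGACGTCA, which contains TGACG, was in 0 of the 7 windows and in 1.55% of all windows. The AP-1 site TGACTCA or TGAGTCA was in 0 of 7 (4.46% of all) and the CArG box of the serum response element was in 0 of 7 (1.47%). Only exact letters within these 250 bases were searched. Sites further upstream, or with other letters, were not covered, so these zeros do not show that a gene lacks such a site. TATAAA was found for Fos alone (12.4% of all windows), and CCGGAA, a core of ETS factor sites, for Nr4a1 alone (12.0%), both searched on both strands. The RefSeq starts of Nr4a1 and Atf3 lie inside the longer gene models of GENCODE, so other start sites of these genes are outside the windows, and the RefSeq start of Jund lies upstream of its GENCODE gene model, so the window of Jund does not adjoin the GENCODE start.

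Cells were clustered in each library alone without the 9 genes, and clusters were named from marker genes as dermal-like, epithelial-like and so on. Levels are UMIs (unique molecular identifiers, which count captured transcripts) of a gene summed over the cells of a class, per 1000000 UMIs of that class (CPM). Intervals in parentheses are exact 95% intervals for counting error only. Named classes held between 54 and 3116 cells, apart from 32 erythroid-like and 30 muscle-like cells at E16.5, and between 3.25% and 10.9% of the cells of a library stayed unnamed. In all named classes at least 7 of the 8 to 10 markers were higher than in the other cells of the library. The libraries shared 32 to 44 cell barcodes pairwise. The epithelial-like class at E13.5 was mixed, since only 266 of its 513 cells had more UMIs of epithelial than of dermal markers, against 876 of 958 (E16.5) and 1429 of 1502 (P0).

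The Fos family was low at E13.5, Fos was higher at each later stage, and Fosb was highest at E16.5. Over all cells of the successive stages, Fos was at 71.7, 524 and 1033 CPM and Fosb at 31.8, 147 and 64.5 CPM. In dermal-like cells Fos was at 56.3 CPM (53.1 to 59.6), 562 CPM (554 to 569.9) and 998 CPM (983 to 1014). The ratio of E16.5 to E13.5 was 9.99 (9.41 to 10.6) and that of P0 to E16.5 was 1.78 (1.74 to 1.81). The intervals do not cover free RNA, whose part in this ratio was not tested. Fos was also higher at each later stage in epithelial-like (101, 508 and 1092 CPM), endothelial-like (41.9, 202 and 936 CPM) and Schwann-like cells (47.2, 378 and 812 CPM). The make-up of the epithelial-like and endothelial-like classes differed between libraries. At E16.5, 193 of 958 epithelial-like cells had Lhx2 among their cluster's leading genes (331 CPM), against 871 of 1502 at P0 (397 CPM). Clusters led by Krt14, Krt15 and Krt5 had 520 to 617 CPM at E16.5, and 2142 and 2469 CPM at P0. At E13.5 a Ccl21a-led cluster held 195 of 373 endothelial-like cells (20.5 CPM), against 44 of 351 at E16.5 (268 CPM). The part of make-up in the class levels was not tested. Melanocyte-like cells had the lowest Fos of the 7 classes of at least 50 cells in both later libraries (132 and 379 CPM). Pericyte-like cells, which were named at E16.5 and P0, went from 579 to 1784 CPM, a ratio of 3.08 (2.88 to 3.30), and had the highest Fos of the named classes at P0.

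Immune-like cells had a high Fos level already before birth. They had the highest level at E13.5, 336 CPM (315 to 359), against 24.4 to 101 CPM in the other 9 classes, and again at E16.5, 1186 CPM against 132 to 579 CPM in the other classes of at least 50 cells. At P0 they were at 1182 CPM, a ratio to E16.5 of 0.996 (0.919 to 1.08). The E13.5 class had 2 clusters, at 422 and 179 CPM, and left out 265 unnamed cells led by Pf4, C1qb and C1qc. These had 10 immune markers high and 110 CPM of Fos, but more erythroid than immune markers among their leading genes. Within the class at E16.5, the cluster led by the macrophage genes Pf4, Lyz2 and C1qb had 1416 CPM (1359 to 1474), and the cluster led by Cd74 and the mast cell genes Cma1 and Cpa3 had 599.7 CPM (542 to 662). At P0 the class was a single cluster of 66 cells led by Cd74, Pf4 and H2-Aa, so the make-up of the class also differed between the stages. Junb in immune-like cells was at 124, 487 and 454 CPM, the highest class at E13.5 and E16.5 but not at P0.

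Fosb went the other way at P0. In dermal-like cells it was at 34.6, 179.9 and 79.6 CPM, with a ratio of P0 to E16.5 of 0.442 (0.416 to 0.470). The ratio was 0.489 (0.452 to 0.530) in epithelial-like, 0.467 (0.386 to 0.562) in pericyte-like and 0.458 (0.344 to 0.601) in immune-like cells. In endothelial-like cells it was 0.831 (0.692 to 0.992) and in Schwann-like cells 0.624 (0.414 to 0.917), so the level was lower in 6 classes with intervals below 1. Melanocyte-like cells gave 0.712 with an interval of 0.419 to 1.23, which includes 1. At E16.5 pericyte-like (199 CPM), immune-like (196 CPM) and dermal-like cells (179.9 CPM) were the highest, and neighbours in this order had overlapping intervals.

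The Jun family was higher at both later stages in dermal-like, epithelial-like, endothelial-like and Schwann-like cells, and each member had its own order of cell types. Dermal-like cells had 202, 409 and 1055 CPM of Jun, and epithelial-like cells 102, 231 and 909.9 CPM. The ratio of P0 to E16.5 for Jun was 4.37 (4.09 to 4.68) in endothelial-like cells, the highest of the 7 classes, and 1.17 (1.05 to 1.31) in immune-like cells, the lowest. At E13.5 the class named from cartilage and tendon markers had the highest Jun (334 CPM) and Jund (609 CPM) of the 10 classes. Jund in dermal-like cells was at 353, 685 and 1638 CPM, and at P0 no other class was as high. In epithelial-like cells Jund was at 190.2, 426 and 825 CPM and below dermal-like cells at every stage, with epithelial to dermal ratios of 0.539 (0.501 to 0.579), 0.622 (0.605 to 0.639) and 0.504 (0.494 to 0.514).

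Junb had the highest ratio of E16.5 to E13.5 of the 9 genes in dermal-like cells. There it was at 6.59 CPM (5.52 to 7.81) at E13.5, the lowest of the 10 classes, and then at 148 and 443 CPM. The ratio of E16.5 to E13.5 was 22.5 (18.9 to 26.9) in dermal-like cells, 13.6 (8.46 to 23.1) in Schwann-like, 4.50 (3.81 to 5.33) in endothelial-like and 3.11 (2.69 to 3.62) in epithelial-like cells. After adding 10 to each CPM the dermal ratio was 9.54. At P0 pericyte-like cells had 939 CPM (893 to 986), and epithelial-like, endothelial-like, immune-like and dermal-like cells were at 443 to 470.2 CPM with overlapping intervals between neighbours.

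**Figure D1:**
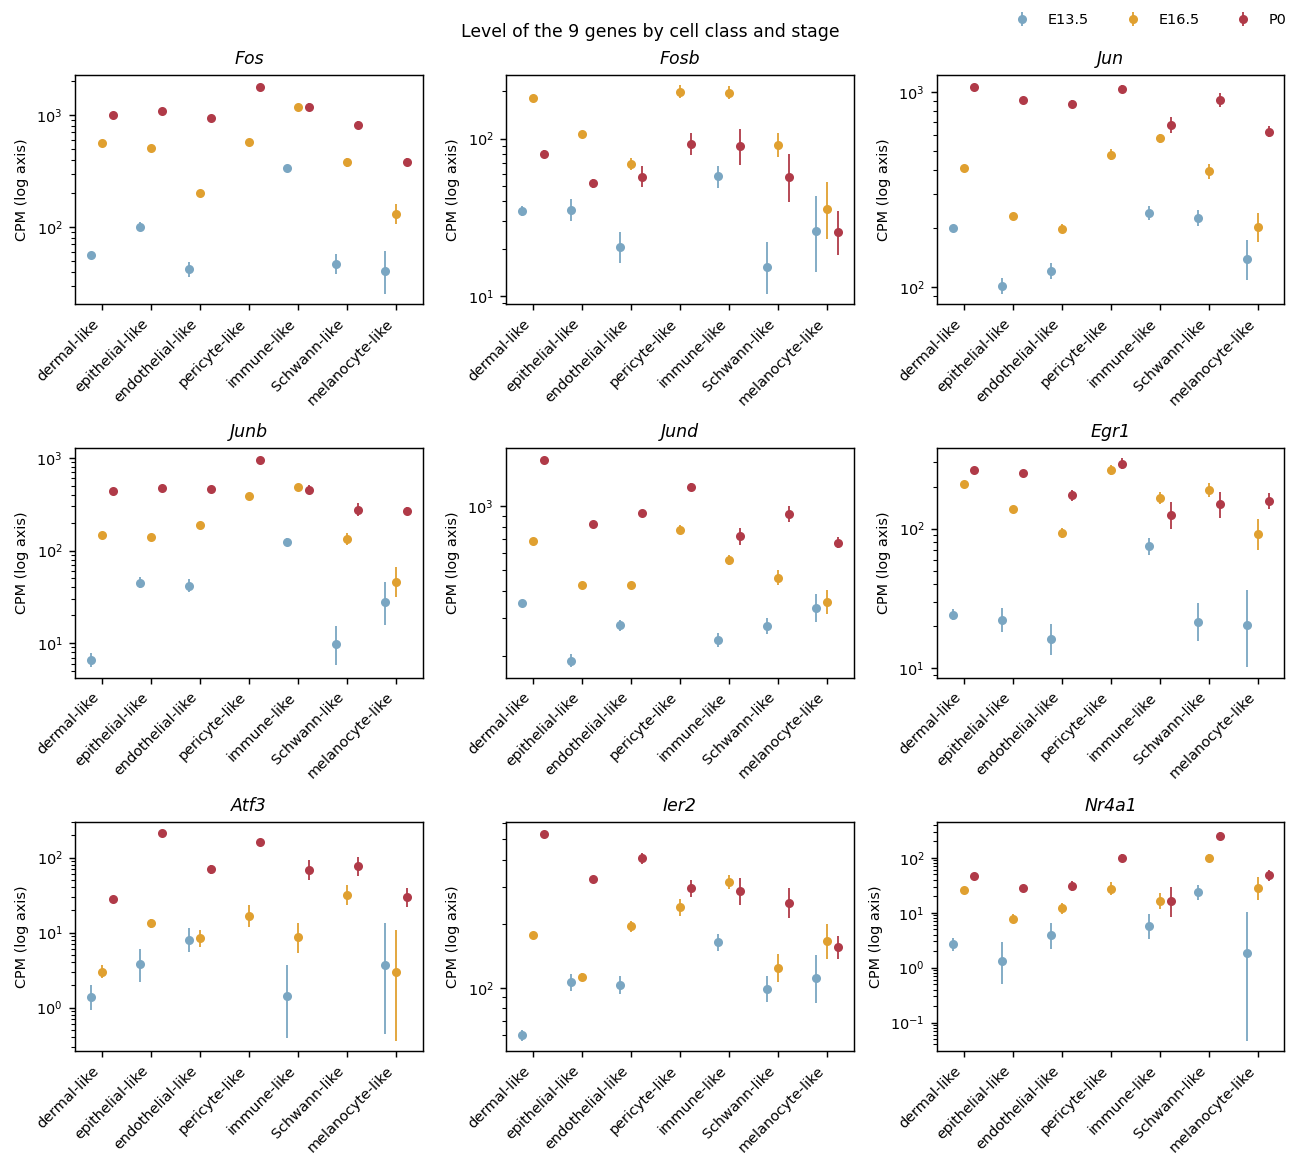
Level of each gene in CPM (log axis) in 7 cell classes at E13.5, E16.5 and P0 (colours); points are sums over the cells of 1 library and bars are exact 95% intervals for counting error, with groups at 0 UMIs not drawn. P0 lies above E16.5 in most classes, except for Fosb, which is highest at E16.5, and for immune-like cells, where Fos is at 1186 CPM before and 1182 CPM after birth.

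Atf3 was low before birth, and at P0 epithelial-like cells had the highest level. Over all cells it was at 1.97, 7.11 and 116 CPM. At E13.5 Schwann-like cells had 0 UMIs, for which 3 counts would be 1.54 CPM and the exact upper limit is 1.89 CPM, and the highest class was endothelial-like with 8.08 CPM (5.49 to 11.5). At E16.5 Schwann-like cells were highest with 31.7 CPM (23.0 to 42.5), an interval that overlaps that of pericyte-like cells. In epithelial-like cells Atf3 was at 3.82, 13.4 and 213 CPM, a ratio of P0 to E16.5 of 15.9 (13.8 to 18.4). Dermal-like cells had 1.38, 3.02 and 28.3 CPM, with a ratio of 9.39 (7.59 to 11.7), and at P0 their interval overlapped that of melanocyte-like cells (30.0 CPM (22.0 to 39.9)) at the lower end of the classes. After adding 10 to each CPM these ratios were 9.54 and 2.94. Pericyte-like cells followed epithelial-like cells at P0 with 159 CPM (141 to 179), and immune-like, endothelial-like and Schwann-like cells were at 68.7 to 77.2 CPM with overlapping intervals between neighbours.

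Nr4a1 was highest in Schwann-like cells at every stage. They had 23.6 CPM (17.3 to 31.5), 101 CPM (84.7 to 119) and 252 CPM (213 to 295) at the successive stages. The next class was immune-like at E13.5 (5.78 CPM), melanocyte-like at E16.5 (28.4 CPM) and pericyte-like at P0 (101 CPM). Epithelial-like cells had 1.35, 7.86 and 27.7 CPM. At E13.5 the classes other than Schwann-like cells had overlapping intervals between neighbours and could not be ordered at this depth.

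Egr1 differed more between E13.5 and E16.5 than between E16.5 and P0 in dermal-like cells, where it was at 24.2, 210.0 and 264 CPM. The ratios were 8.68 (7.92 to 9.52) and 1.26 (1.21 to 1.31). Epithelial-like cells had 22.3, 139 and 249.8 CPM of Egr1. In immune-like cells Egr1 was lower at P0 (125 CPM) than at E16.5 (165 CPM), with a ratio of 0.759 (0.592 to 0.963). Ier2 in dermal-like cells was at 59.6, 178 and 531 CPM. Epithelial-like cells had 106, 113 and 326 CPM of Ier2, and the interval of its first ratio, 1.06 (0.957 to 1.18), includes 1.

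A gene was counted as higher or lower where the ratio of its CPM was at least 2-fold, among genes with at least 50 UMIs in both groups together. From E13.5 to E16.5, 35 of 48 class and gene pairs in 6 classes were at least 2-fold higher, against 5.71% of all class and gene pairs tested, and 0 were at least 2-fold lower, against 7.91%. In dermal-like cells 8 of 9 genes were higher (6.58% of all genes) and Jund, with a ratio of 1.94, was not. In epithelial-like cells 8 of 9 were higher (7.08%) and Ier2 was not. The counts were 5 of 9 in endothelial-like (5.6%), 7 of 8 in immune-like (4.42%), 5 of 8 in Schwann-like (4.7%) and 2 of 5 in melanocyte-like cells (3.6%). The ratio of Jund was 1.07 to 2.36 over the 6 classes.

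From E16.5 to P0, 33 of 61 pairs in 7 classes were at least 2-fold higher, against 5.72% of all pairs, and 4 were at least 2-fold lower, against 12%. All 4 lower pairs were Fosb, in dermal-like, epithelial-like, pericyte-like and immune-like cells. The higher counts were 5 of 9 in dermal-like (6.68% of all genes), 6 of 9 in epithelial-like (6.48%), 7 of 9 in endothelial-like (5.13%), 5 of 9 in pericyte-like (5.95%), 6 of 9 in Schwann-like (5.07%) and 3 of 8 in melanocyte-like cells (5.6%). Immune-like cells had 1 of 8 (3.69%), which was Atf3 with a ratio of 7.94 (4.60 to 14.2). The median log2 ratio of the genes was 1.26 in dermal-like and 1.54 in epithelial-like cells, where that of all genes tested was -0.27 and -0.12. In immune-like cells it was -0.05, where that of all genes was -0.21. Both steps share the E16.5 library.

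**Figure D2:**
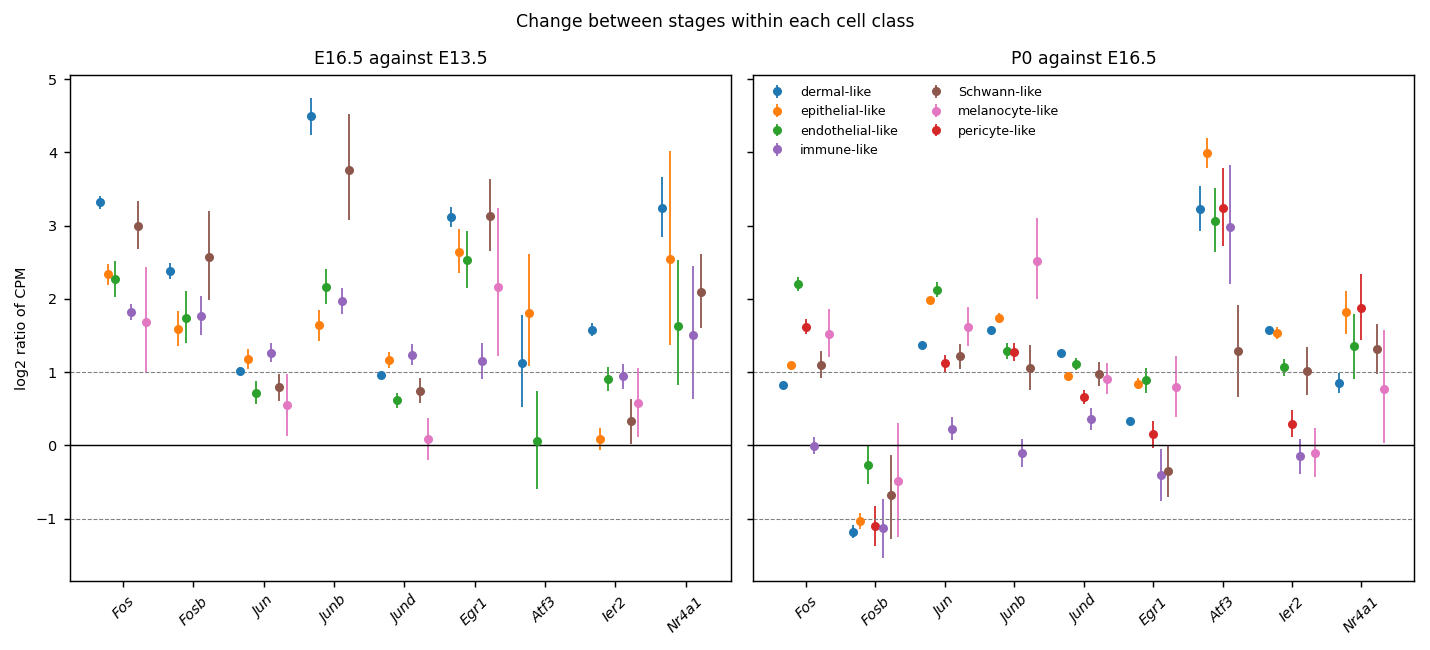
Log2 ratio of CPM for each gene between consecutive stages, by cell class (colours); bars are exact 95% intervals for counting error, dashed lines mark 2-fold, and pairs under 50 UMIs are not drawn. From E16.5 to P0 Fosb lies below 0 in all 7 classes, while immune-like cells lie near 0 for Fos (ratio 0.996) and Junb (ratio 0.933).

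Epithelial-like and dermal-like cells of the same library share the enzyme and the digestion. At E13.5, 1 of 8 genes tested was at least 2-fold higher in epithelial-like cells, against 8.32% of all genes, and 1 was at least 2-fold lower, against 12.2%. The higher gene was Junb, with a ratio of 6.86 (5.48 to 8.60), and the lower was Nr4a1, at 0.499 with an interval of 0.175 to 1.16. At E16.5 the counts were 1 of 9 higher (11.6%) and 1 of 9 lower (18.5%), Atf3 at 4.43 (3.49 to 5.65) and Nr4a1 at 0.307 (0.252 to 0.372). After adding 10 to each CPM these low levels gave a ratio of 1.80 for Atf3 and 0.502 for Nr4a1, and 0.893 for Nr4a1 at E13.5. At P0 the counts were 1 of 9 higher (15.5%) and 0 of 9 lower (17.5%), with Atf3 at 7.52 (6.83 to 8.29). The epithelial to dermal ratio of Fos was 1.79 (1.60 to 2.00), 0.904 (0.881 to 0.928) and 1.09 (1.07 to 1.12) over the stages.

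Inside the epithelial-like class at P0 the clusters lay far apart. The 3 clusters led by epidermal keratins (Krt1 and Krt10, or Krt5, Krt14 and Krt15, in 494 cells) had 2142 to 2885 CPM of Fos and 569 to 657 CPM of Atf3. The 4 clusters with the follicle genes Lhx2, Sox9, Shh or Krt28 among their leading genes (871 cells) had 147 to 556 CPM of Fos and at most 39.0 CPM of Atf3. For all 9 genes every epidermis-led cluster lay above every follicle-led cluster, which held for 9.3% of all genes, and 8 of 9 genes were at least 2-fold higher in the epidermis-led set, against 6.84%. The ratio was 19.0 (17.0 to 21.3) for Atf3, 6.35 (6.14 to 6.57) for Fos, 5.48 (4.68 to 6.45) for Fosb, 3.92 (3.70 to 4.15) for Ier2 and 1.85 (1.79 to 1.91) for Jun. Both sets were formed after the values of the clusters had been seen, so these counts and shares are a description and no test of a difference. A cluster led by Krt79, a gene of the upper follicle, had 647 CPM of Fos and 39.2 CPM of Atf3. The lowest Fos was in the cluster led by Krt28 and Krt35, keratins of the inner root sheath and hair shaft, with 147 CPM (127 to 169), beside 281 CPM of Jun and 56.8 CPM of Egr1. Mitochondrial genes took 3.42% to 3.57% of the UMIs in the epidermis-led and 3.13% to 3.47% in the follicle-led clusters, and the summed heat shock genes were at 4132 to 4677 and 5114 to 5998 CPM. Their part in this difference was not tested.

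The dermal-like clusters at P0 also differed. The cluster led by Col1a1, Col1a2 and Mfap4 (488 cells) had 1627 CPM of Fos, 839 of Junb and 2143 of Jund, and the one led by Dlk1, Ly6a and Pcolce (212 cells) had 1459, 895 and 1703 CPM. The clusters led by Lum, Itih5 and Osr2, by Twist2, Lum and Osr2, and by Lgals1, Lum and Wif1 had 551 to 590.4 CPM of Fos and 107 to 151 CPM of Junb. The highest levels of all clusters for Junb, 2342 CPM (2196 to 2495), and Ier2, 2070.2 CPM (1933 to 2215), were in 43 dermal-like cells led by Serpine2, Ebf1, Rspo1 and Gdf10, in which Atf3 was at 9.79 CPM on 4 UMIs. Jun (1723 CPM) and Egr1 (624 CPM) were also highest there. These cells took the dermal name with 9 markers high, but their dermal markers summed to 5019 CPM, against 45391 CPM in the class. Clustered again, they had 11 condensate and papilla markers high. A cluster without a class name, led by Ccl21a, Ebf1, Igfbp3 and Sox18 (182 cells), had 1075 CPM of Ier2 and 677 of Junb. At E16.5 the highest Ier2 level of all clusters, 497 CPM (461 to 535), was likewise in a cluster without a class name, led by Ebf1, Stmn2, Bmp4 and Rspo3 (169 cells), and its Jun level was 189.8 CPM.

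**Figure D3:**
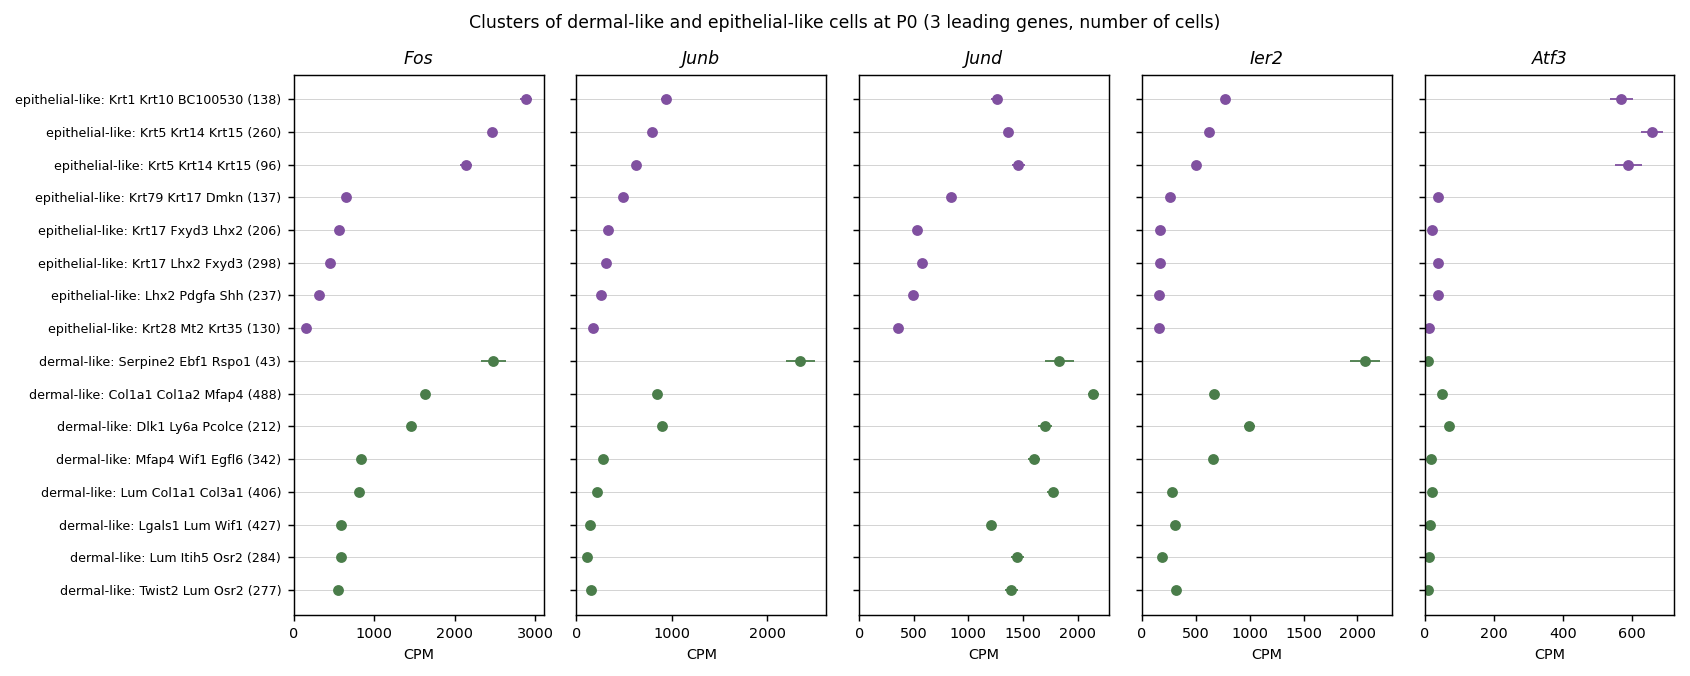
CPM of genes in each cluster of epithelial-like and dermal-like cells at P0 (colours), labelled by leading genes; bars are exact 95% intervals for counting error. Fos is at 2142 to 2885 CPM and Atf3 at 569 to 657 CPM in the 3 epidermis-led clusters. The highest Junb and Ier2 are in 43 cells led by Serpine2, Ebf1 and Rspo1, named dermal-like but high in condensate and papilla markers.

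The genes were also counted in single cells. Such counts rise with the level of each gene, whether or not the genes go together. With each cell thinned to 3400 UMIs, the median cell of the successive stages had a UMI for 1, 3 and 4 of the 9 genes, and cells with 0 of the 9 made up 14.1%, 2.67% and 0.967%. Cells with at least 5 of the genes made up 0.720%, 32.3% and 44.8% of dermal-like cells, and 50.3% and 64.5% of pericyte-like cells at E16.5 and P0. Over 36 pairs of the genes, the median Pearson correlation across dermal-like cells was 0.015, 0.116 and 0.239 at the successive stages, and across epithelial-like cells it was 0.030, 0.083 and 0.369. The highest pair at P0 was Fos with Atf3 in epithelial-like cells, with Pearson 0.620 and Spearman 0.558 over 1502 cells, and Fos with Junb in dermal-like cells, with 0.532 and 0.472 over 2479 cells. Within the epidermis-led clusters described above the Pearson value for Fos with Atf3 was 0.574, and within the follicle-led clusters it was 0.217. The median over the 36 pairs was 0.299 and 0.182 in these sets. These cells share a library and, after thinning, a depth, and at E13.5 the counts were sparse, so weak values there are no finding. At P0 the 10% of dermal-like cells with the most UMIs of a gene held 62.6% of the Junb UMIs and 26.9% of the Jund UMIs.

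**Figure D4:**
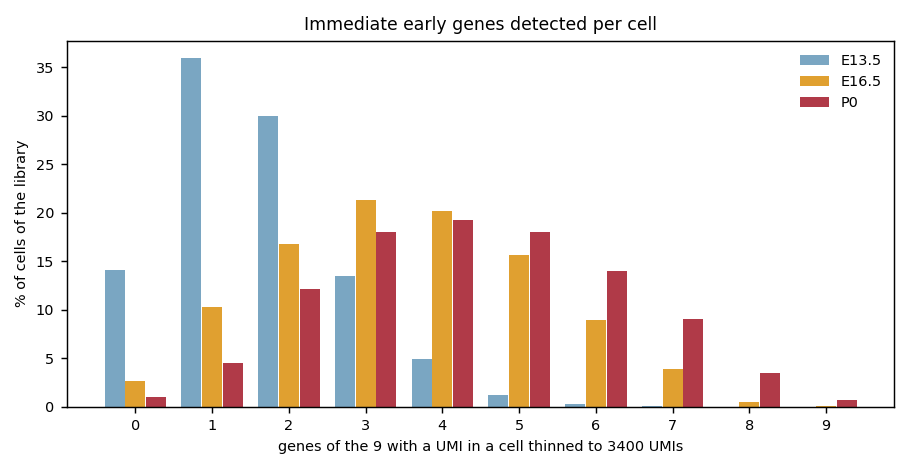
Share of cells (percent of the library) by the number of the 9 genes with at least 1 UMI after thinning each cell to 3400 UMIs, at E13.5, E16.5 and P0. The median moves from 1 gene in the E13.5 library to 3 and then 4 genes in the later ones.

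Cells with few cycling transcripts had more Fos at P0. In epithelial-like cells without a UMI of 12 cycling genes after thinning (417 cells) Fos was at 1926 CPM, against 689 CPM in the 687 cells with at least 3 such UMIs, a ratio of 2.80 (2.71 to 2.89). The epithelial-like clusters took unequal shares of these cells, and the ratio was 1.32 (1.27 to 1.38) within the epidermis-led and 1.49 (1.36 to 1.63) within the follicle-led clusters. In dermal-like cells, where this was not split by cluster, it was 1.86 (1.78 to 1.95) for Fos and 2.87 (2.66 to 3.10) for Junb. At E16.5 the ratio for Fos was 1.29 (1.21 to 1.37) in epithelial-like and 1.23 (1.19 to 1.28) in dermal-like cells. The interval for Nr4a1 in dermal-like cells includes 1 at E16.5, 0.906 (0.760 to 1.08), and at P0, 1.19 (0.984 to 1.44). Depth moved with some genes: at P0 the third of dermal-like cells with the fewest UMIs had 193 CPM of Junb and the third with the most had 595 CPM, while Jun was at 1075 and 1062 CPM. Its part in the differences between clusters was not tested.

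Free RNA was looked at through erythroid-like cells, but whether these cells express the 9 genes themselves was not tested. At E13.5, 14.5% of thinned erythroid-like cells had a Fos UMI, against 15.7% of dermal-like cells (23.7% and 30.7% before thinning, with median depths of 5909 and 8307 UMIs), while immune-like cells had 49.2%. These erythroid-like cells were no clean blank, since the 10 dermal markers in them summed to 69.2% and Col1a1 was at 100.1% of the level in dermal-like cells. The part of free RNA in the low E13.5 levels of the 9 genes was not tested. At E16.5 the shares were 59.4% of 32 erythroid-like and 68.5% of 3116 dermal-like cells (93.8% and 87.8% before thinning, at 16672 and 10534.5 UMIs), and the dermal markers in those erythroid-like cells summed to 62.0% of their level in dermal-like cells. In the other classes of at least 50 cells at E16.5 the dermal markers summed to 7.60% to 26.4% of the dermal level and the 9 genes to 44.3% to 146%. For P0 these ranges were 3.33% to 21.7% and 46.5% to 116%. For E13.5, apart from erythroid-like cells, they were wider for the dermal markers, 22.9% to 74.9%, and 67.8% to 168% for the 9 genes. The 74.9% was in the class named from cartilage and tendon markers. How much of this was free RNA was not tested.

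Other genes of the same response were read from lists. Of 39 other immediate early and early response genes in the table, 13 of 36 tested were at least 2-fold higher and 3 lower from E16.5 to P0 in dermal-like cells (median log2 ratio 0.60), and 12 of 36 higher and 0 lower in epithelial-like cells (0.48). From E13.5 to E16.5, 9 of 34 were higher and 5 lower in dermal-like cells (0.49), and 12 of 32 higher and 7 lower in epithelial-like cells (0.46). Of all genes tested, the shares at least 2-fold lower were 10.4% and 12.3% at the earlier step and 15% and 12.7% at the later one in dermal-like and epithelial-like cells, beside the shares higher given above. All genes tested had medians of -0.27 and -0.12 at the later step and -0.18 and -0.24 at the earlier one. Cyr61, a secreted matrix protein, was at 66.2, 300.3 and 940.4 CPM in dermal-like cells over the 3 stages, and Btg1, an antiproliferative factor, at 136, 361 and 512 CPM. Zfp36l1, which binds AU-rich mRNAs, was at 297, 198 and 179 CPM. In immune-like cells 11 of 26 were higher and 0 lower at E16.5 (0.80), and 2 of 22 were higher and 2 lower at P0 (0.14), where 4.98% and 12.8% of all genes were lower at these steps.

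Other AP-1 subunits and upstream regulators were counted in the same way. Of all genes tested in dermal-like cells, 6.58% were higher and 10.4% lower at the first step, and 6.68% and 15% at the second. In epithelial-like cells these shares were 7.08% and 12.3%, then 6.48% and 12.7%. In dermal-like cells 4 of 12 subunits were higher and 0 lower from E13.5 to E16.5, and 2 of 12 higher and 1 lower from E16.5 to P0. In epithelial-like cells 3 of 9 were higher and 0 lower at the first step, and 0 of 9 were higher or lower at the second. Maf was at 27.7, 58.6 and 77.8 CPM in dermal-like cells, Atf4 at 71.5, 92.8 and 99.8 CPM and Mafg at 46.3, 52.1 and 65.1 CPM. Of 20 upstream kinases and factors such as Srf and Creb1, 1 was higher and 0 lower in dermal-like cells at the first step, and 0 were higher and 2 lower at the second. In epithelial-like cells 0 were higher and 1 lower, then 0 higher and 2 lower. Map2k2, a MAP kinase kinase, was at 226, 204 and 176 CPM in dermal-like cells, the kinase Mapk3 at 66.1, 107 and 91.6 CPM and Hras at 88.4, 103 and 98.3 CPM.

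Feedback phosphatases and inhibitors of the MAP kinase pathway had a median log2 ratio of -0.62 from E16.5 to P0 in both classes. In dermal-like cells 1 of 11 was higher and 1 lower at the first step, and 2 of 12 were higher and 4 lower at the second, against 6.68% and 15% of all genes. In epithelial-like cells 3 of 10 were higher and 1 lower, then 0 higher and 3 lower, against 6.48% and 12.7% at the second step. Dusp6, a phosphatase of ERK, was at 44.7, 39.8 and 11.9 CPM in dermal-like cells, Spry2 at 156, 101 and 57.2 CPM and Spred1 at 84.0, 120.3 and 39.8 CPM. Of 13 listed AP-1 target genes in the table, 4 of 10 tested were higher and 2 lower at the first step in dermal-like cells, and 4 of 10 higher and 1 lower at the second. In epithelial-like cells 1 of 7 was higher and 2 lower, then 2 of 8 higher and 0 lower. The shares of all genes at both steps are those given above for each class. Vim, the filament protein of mesenchymal cells, was at 989, 1719 and 4152 CPM in dermal-like cells, Mmp14, a membrane-bound protease, at 203, 221 and 236 CPM, and Ccnd1, a cyclin, at 161, 196 and 119.9 CPM.

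Heat shock genes, which also answer to stress, were counted in the same way. In dermal-like cells 0 of 14 were higher and 1 lower from E13.5 to E16.5, and 2 of 15 higher and 3 lower from E16.5 to P0 (median log2 ratio -0.30), against 15% of all genes lower. In epithelial-like cells 3 of 15 were higher and 3 lower, then 2 higher and 2 lower (-0.02). The 3 genes of the list with the highest mean CPM were not among the 2 genes higher at P0 in either class. In each of the 7 classes 2 of the 11 to 15 heat shock genes tested were higher at P0, against 3.69% to 6.68% of all genes. In these classes 1 to 4 were lower, against 7.75% to 15%. In dermal-like cells Hsp90ab1 was at 1754, 1143 and 918 CPM, Hspa8 at 1546, 1189 and 960.2 CPM and Hspe1 at 586, 439.9 and 331 CPM. These 3 genes do not stand for the whole list. Of the 12 cycling genes 0 changed 2-fold at the first step in either class, and at the second 0 were higher and 5 lower in dermal-like and 1 lower in epithelial-like cells. For heat shock and cycling genes alike, the shares of all genes are those given above for each step and class. Ube2c was at 287, 275 and 214 CPM in dermal-like cells, Birc5 at 298, 344 and 221 CPM and Top2a at 226, 261 and 106 CPM. Mitochondrial genes took 2.90%, 2.66% and 3.02% of the UMIs of the successive libraries and ribosomal protein genes 19.9%, 24.9% and 28.3%.

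Of the genes outside the set, S100a6, Txnip, Lmna and Dusp1 had a similar pattern over the 24 class and stage groups of at least 50 cells, with Pearson correlations to the mean standardized level of the 9 genes of 0.925, 0.909, 0.887 and 0.876 among 11674 genes. The highest value, 0.933, belonged to Rpl10-ps3, a ribosomal protein pseudogene whose reads may come from near-identical copies. Dusp1, a MAP kinase phosphatase that is itself an immediate early gene, was at 11.8, 43.6 and 367 CPM in dermal-like and at 10.1, 38.8 and 194 CPM in the epithelial-like class. S100a6, a calcium-binding protein, was at 105, 452 and 1417 CPM in dermal-like cells. The groups come from 3 libraries, and the correlation is a description.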

How the data were processed

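The study's 3 libraries, from E13.5, E16.5 and P0, were each made from pooled skin. UMIs were counted with Cell Ranger 2.2.0 on mm10, as the submitters' processing notes have it. The authors filtered cells in Seurat by genes per cell, and the deposited values are natural logs: of 1 plus UMIs that were scaled to 10000 in every cell. The table holds 16235 cells, all with at least 1750 genes, where the series' design text gives 15086. All 48197283 values above 0 gave whole UMIs within a tolerance of 0.001. The libraries held 53334740, 66239195 and 46599806 UMIs, with medians of 7066.5, 11021 and 6797 per cell.

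Clustering used scanpy 1.11.5 on 1 library at a time (2000 variable genes without the 9 genes and the listed genes other than markers, 30 principal components, 15 neighbours, Leiden resolution 1). A cluster took the class whose markers were highest over the 25th percentile of the clusters, with at least 3 markers at a log2 difference of 1 or more and 10 added to each CPM. Clusters with more leading genes of another class stayed unnamed, as did 3 clusters led by platelet, fat cell, or keratinocyte and dermal genes (7 cells at E13.5, 45 and 88 at P0), whose gene lists were chosen once the clusters were known. A second clustering of dermal-like and epithelial-like cells gave some clusters names that went against their leading genes, so none of its names was used. Other names did match, as for the 43 dermal-like cells at P0 led by Serpine2. They were named from dermal condensate and papilla markers, with 11 markers high. Doublets were kept.

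UMIs were summed per class and library and divided by the class total. Sums have exact Poisson intervals, ratios exact conditional (Clopper-Pearson) intervals and shares exact binomial intervals, at 95%, for counting error only. A zero was replaced by 3 counts in counts of 2-fold changes. The code was tested on simulated data. The 9 genes and the lists were chosen with earlier results of these data known. The named genes are the 9, the 3 genes of each list with the highest mean CPM and the 5 of most similar pattern. Genes named as leading a cluster were chosen after their values were seen. Alternatives changed the clustering, naming, cell filters, doublet removal, weights, totals and the CPM added. No promoter window was used for Ier2 and Egr1.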

Additional observations from a re-analysis of the deposited data

Results flagged for a closer look

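Egr1 moved in opposite directions between classes from E16.5 to P0. It was higher at P0 in endothelial-like cells (log2 ratio 0.89) and lower in immune-like cells (log2 ratio -0.40), a difference of 1.29 on the log2 scale. Its interval lay above a ratio of 1 in 4 classes and below it in 1. The difference was not tested, since each stage is 1 library, and the immune-like class at P0 was 1 mixed cluster of 66 cells.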

How the results depend on the processing

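No ratio at or past 2-fold reversed its direction under the 12 alternatives. They gave 29 to 37 pairs higher and 0 lower from E13.5 to E16.5, and 27 to 34 pairs higher from E16.5 to P0. The count of pairs lower at P0, which was 4, became 2 with a minimum of 2500 genes per cell, where fewer cells remained, and Fosb in epithelial-like cells then had a ratio of 0.558. The count of genes higher in epithelial-like than dermal-like cells at E16.5, which was 1 (Atf3), became 0 after adding 10 to each CPM. That at E13.5 became 2, with Fos at 2.03, when only cells with more epithelial than dermal marker UMIs were kept, an alternative chosen after seeing the data. Between 1 and 12 of the 117 to 135 ratios crossed 2-fold under an alternative, 12 of them after adding 10, which shrinks ratios of low levels such as those of Atf3 and Nr4a1. Fosb in Schwann-like cells from E13.5 to E16.5 ranged from 3.51 to 17.9, and the cause was not tested. Scrublet called 0 doublets at E13.5 and was not used there. No paired analysis was possible because each stage has 1 library.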
